A study of Homo sapiens with 8 samples.

Results

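Desmosomes are spot-like junctions that rivet the keratin filaments of neighbouring keratinocytes together, and they give the epidermis its resistance to mechanical stress. Their outer part is made of the desmosomal cadherins, the desmogleins (DSG) and desmocollins (DSC), which hold the neighbouring cell. Inside the cell plakoglobin (JUP) and the plakophilins (PKP) bind the cadherin tails, and desmoplakin (DSP) links them to keratin. The 10 genes described here, DSG1, DSG2, DSG3, DSC2, DSC3, JUP, PKP1, PKP2, PKP3 and DSP, were taken by name as the genes of this structure. All 10 were found by their Entrez identifiers among the 17131 genes of the table. The rule that picks them uses names and no measured value, but the genes were chosen with earlier results of these data known.

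HaCaT, an established line of wild type human keratinocytes, was stimulated with M5, which stands for 5 cytokines (oncostatin M, TNF-α, IL-1α, IL-17A and IL-22) that were each added at 10 ng/mL for 24 h to model psoriasis in culture. OTS514, an inhibitor of the kinase TOPK, was given to part of the cultures at 10 nM, for 12 h on its own and then together with M5. RNA of 8 libraries was sequenced, 4 titled M5_O5 and 4 titled M5, and no unstimulated culture was analysed here. By title the M5_O5 libraries received OTS514 as well as M5, but by the treatment field it was the other 4 libraries that received the TOPK inhibitor. Groups are given here by title: a gene lower in M5_O5 was lower with OTS514 if the titles hold and higher with OTS514 if the entered treatment holds. All 8 libraries come from a single cell line, and the labels do not say whether the replicates of a group were separate cultures, so the p-values measure the spread between these libraries, which may be technical.

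Total counts lay between 13708055 and 16922693 per library, and the lowest belonged to M5 replicate 1. All 9 keratinocyte markers checked were expressed, with a summed level of 16270 to 18940 CPM (counts divided by the size of the library after TMM scaling) in the M5_O5 libraries and 18960 to 22910 CPM in the M5 libraries. Summed markers of melanocytes reached at most 1.19 CPM. Those of endothelium reached 3.10 to 3.85 CPM in M5_O5 and 0.311 to 1.11 CPM in M5. The endothelial sum was mostly CDH5 in M5_O5 (2.93 CPM), whereas in M5 VWF (0.40 CPM) exceeded CDH5 (0.32 CPM). VWF was at 0.45 CPM in M5_O5, and PECAM1, TEK and CLDN5 were at or near 0 in both groups. Summed fibroblast markers reached 33.1 to 36.6 CPM in M5_O5 and 43.1 to 58.3 CPM in M5. Those of immune cells reached 79.8 to 98.6 and 94.8 to 127 CPM. The fibroblast sum was mostly COL1A1, at 32.8 CPM in M5_O5 and 48.8 CPM in M5. COL1A2 and COL3A1 were at 0 in M5_O5 and at 0.482 and 0.278 CPM in M5. The immune sum was mostly CD14 (34.1 CPM in M5_O5 and 37.6 CPM in M5) and CD68 (54.8 and 74.9 CPM). The immune markers PTPRC and CD207 had no count in any library. The parts that these markers have in the results were not tested. In bulk RNA, fewer cells of a type and less RNA per cell cannot be told apart. PBK, the gene of TOPK, measured 2.98 ± 0.563 CPM in M5_O5 and 1.22 ± 0.953 CPM in M5 (SD, n = 4 each). In the edgeR fit described below PBK was higher in M5_O5 (log2 fold change 1.32, SE 0.34, adjusted p = 0.00738, edgeR). M5 replicate 1 at 2.63 CPM lay within the range of the M5_O5 libraries.

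The desmosomal cadherin genes lie side by side on chromosome 18, in the order DSC3, DSC2, DSC1, DSG1, DSG4, DSG3, DSG2 in the RefSeq table of GRCh38.p14, with no other protein-coding gene between the first and the last. The genes at both ends of this row were expressed. Of the 3 in the middle, DSC1 and DSG1 were at or near 0 and DSG4 was low. DSG1, a desmoglein of the upper, differentiating epidermis, had 1, 2, 0 and 0 counts in M5_O5 replicates 1 to 4 and 7, 6, 0 and 1 counts in M5 replicates 1 to 4. In the 3 libraries with no count, a count of 0 allows up to 3 counts, or 0.184 to 0.188 CPM, a limit that covers counting error only. DSC1, the desmocollin found in the same upper layers, had at most 2 counts in any library. DSG4, best known from the hair follicle, had 3 to 114 counts, which is 0.06 to 3.07 TPM (abundance relative to transcript length and library). DSG3, known as the desmoglein of the lower epidermis and the target of autoantibodies in pemphigus vulgaris, was in contrast measured with 12789 to 15263 counts.

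The start regions of DSG1 and DSG3 are shown because DSG1 was near 0 and DSG3 high although both lie in the same cluster and share a stretch of sequence. Each run covers 250 bases before and 50 bases after the annotated start, from RefSeq on GRCh38.p14, plus strand, 5′ to 3′, with the longest run common to both in capitals.
DSG1, chr18:31317910-31318209: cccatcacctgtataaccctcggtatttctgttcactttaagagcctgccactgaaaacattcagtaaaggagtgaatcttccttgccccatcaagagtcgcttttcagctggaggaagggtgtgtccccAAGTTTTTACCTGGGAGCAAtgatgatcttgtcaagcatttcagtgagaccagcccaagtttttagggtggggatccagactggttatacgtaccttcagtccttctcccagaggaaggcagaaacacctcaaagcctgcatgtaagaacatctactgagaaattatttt
DSG3, chr18:31447491-31447790: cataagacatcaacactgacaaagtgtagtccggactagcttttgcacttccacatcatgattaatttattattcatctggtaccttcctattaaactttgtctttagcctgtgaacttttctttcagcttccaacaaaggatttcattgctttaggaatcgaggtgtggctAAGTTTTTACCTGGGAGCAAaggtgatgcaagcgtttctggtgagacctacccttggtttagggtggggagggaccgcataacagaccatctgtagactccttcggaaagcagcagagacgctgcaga

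The shared run is 20 bases long, lies between positions -120 and -101 from the DSG1 start and between -78 and -59 from the DSG3 start, and occurs in 2 of all 35116 start windows of the table, those of DSG1 and DSG3. Among the other pairs of the 10 windows available for 8 of the genes, the longest common run was 12 bases. Placed on this run without gaps, 30.2% of the 258 positions that overlap were identical. Letters of 4 transcription factor motifs were searched on both strands of the same windows. TGANTCA (AP-1), GGNNTTTCC (NF-kB) and AACCGGTT (GRHL) were in no window of the 8 genes and in 7.71%, 6.26% and 0.134% of all windows. TTCNNNGAA (STAT) was in a window of DSC2 and in 7.66% of all windows. A match describes letters only, and a missing match says only that these letters are not in this window.

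**Figure D1:**
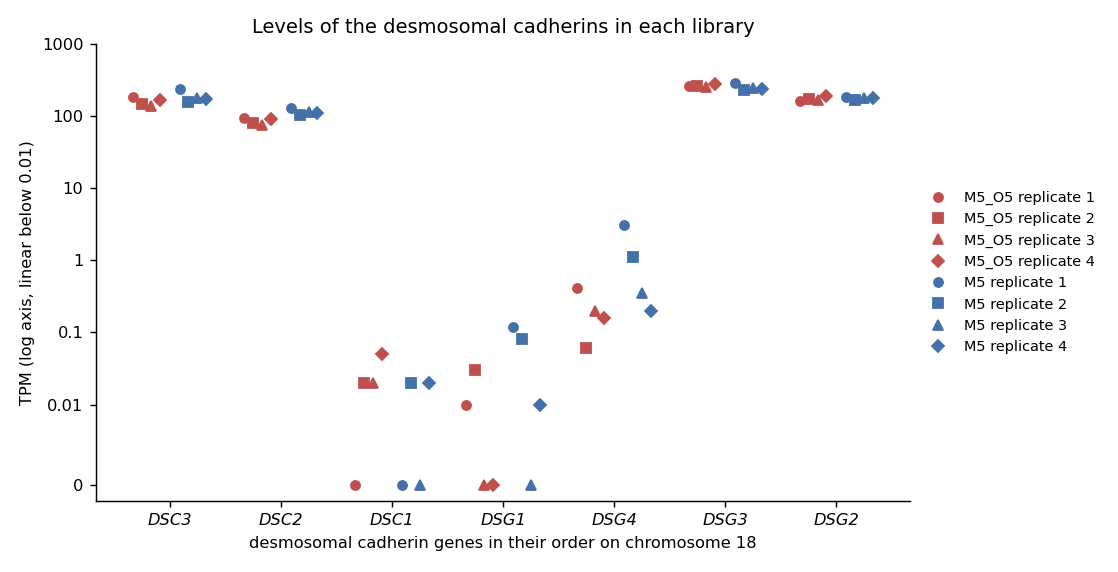
TPM (log axis, linear below 0.01) of the 7 desmosomal cadherin genes in the order in which they lie on chromosome 18, with a point per library, red for M5_O5 and blue for M5, and a shape for each replicate number. DSC3, DSC2, DSG3 and DSG2 sit between 75.5 and 292 TPM, whereas DSC1, DSG1 and DSG4 sit at or below 3.07 TPM.

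Levels of different genes were compared in TPM, which divides by transcript length. JUP was the highest of the 10 genes at 953 ± 60.6 TPM in M5_O5 and 1089 ± 69.9 TPM in M5 (SD, n = 4 each), and it exceeded DSP in all 8 libraries. DSP followed at 288 ± 8.98 and 324 ± 24.9 TPM. Below DSP stood PKP1 at 227 ± 9.66 and 294 ± 6.80 TPM and DSG3 at 263 ± 10.7 and 250 ± 28.5 TPM. These 2 genes changed places: DSG3 was above PKP1 in all 4 M5_O5 libraries and below it in all 4 M5 libraries. In M5 replicate 1 they were nearly equal, DSG3 at 291.7 TPM and PKP1 at 292.6 TPM. PKP3 at 202 ± 20.5 and 205 ± 3.28 TPM came next. DSG2 at 174 ± 11.4 and 178 ± 7.22 TPM and DSC3 at 158 ± 20.2 and 186 ± 33.9 TPM overlapped in both groups and did not differ beyond their spread. DSC2 at 85.2 ± 8.91 and 115 ± 9.82 TPM lay below DSC3 in every library, PKP2 at 21.6 ± 0.658 and 23.3 ± 1.1 TPM below DSC2, and DSG1 at no more than 0.12 TPM was last. The order of the means over all 8 libraries was the same for all 10 genes in FPKM. Within a library FPKM differs from TPM only by a common factor, so this is no separate check.

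Within the families, DSG3 made up 60.3 ± 1.16% of desmoglein TPM in M5_O5 and 58.3 ± 1.88% in M5, and DSG2 nearly all the rest. DSC3 made up 65.0 ± 0.643% of desmocollin TPM in M5_O5 and 61.6 ± 2.11% in M5. PKP1, the main plakophilin of stratified epithelia, made up 46.1 to 53.5% of plakophilin TPM in M5_O5 and 55.7 to 57.0% in M5, ranges that do not overlap. PKP3, found in nearly all epithelia, took up 41.7 to 49.4% and 38.8 to 39.7%. PKP2, the plakophilin of simple epithelia and heart, took between 4.11 and 5.08% in the 8 libraries. These shares do not depend on how libraries are scaled against each other, and they are given as a description without a test.

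The comparison of the libraries titled M5_O5 with those titled M5 asks how TOPK inhibition bears on the desmosome of cytokine-stimulated keratinocytes. Of the 10 genes, 9 had enough counts to be tested, all but DSG1. DSC2, PKP1, DSC3, JUP, DSP, PKP2 and DSG2 were lower in M5_O5, 7 of 9, none was higher, and DSG3 and PKP3 did not pass the test. Called genes had an adjusted p-value under 0.05 in edgeR's quasi-likelihood test, with Benjamini-Hochberg adjustment over all 12434 genes tested, and by this rule 17.6% of all genes were lower and 19.5% were higher in M5_O5. No member reached a fold change of 2, a size that 0.33% of all genes passed in the lower direction and 2.87% in the higher. The median log2 fold change was -0.30 over the 9 genes and 0.01 over all genes tested. In 6 of the 9 all M5_O5 libraries lay below all M5 libraries, which was so for 15.8% of all genes.

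Highly expressed genes were lower in M5_O5 in general, and this has to stand beside these counts. Among the 3957 genes that averaged 50 CPM or more, a level that all 9 genes passed, 35.6% were called lower and 9.78% higher, and the median log2 fold change was -0.11. The share called lower was 4.77% for genes between 1 and 10 CPM, 32.4% between 50 and 200 CPM, 45.3% between 200 and 1000 CPM and 52.9% at 1000 CPM or more. DSC2 and PKP1 lay at the low edge of genes of at least 50 CPM, where 2.15% and 2.98% of genes had a lower fold change. For DSC3, JUP and DSP this share was 9.27%, 12% and 14.6%, for PKP2 23.6%, and for DSG2, PKP3 and DSG3 38.1%, 41.2% and 62.5%. With the trend of each library on expression level removed, DSC2 (log2 fold change -0.40, adjusted p = 0.000208, edgeR), PKP1 (-0.32, adjusted p = 0.000503) and PKP2 (-0.19, adjusted p = 0.0248) were still lower, and the calls of DSC3, DSP, JUP and DSG2 were lost. The median over the 9 genes was then -0.12.

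**Figure D2:**
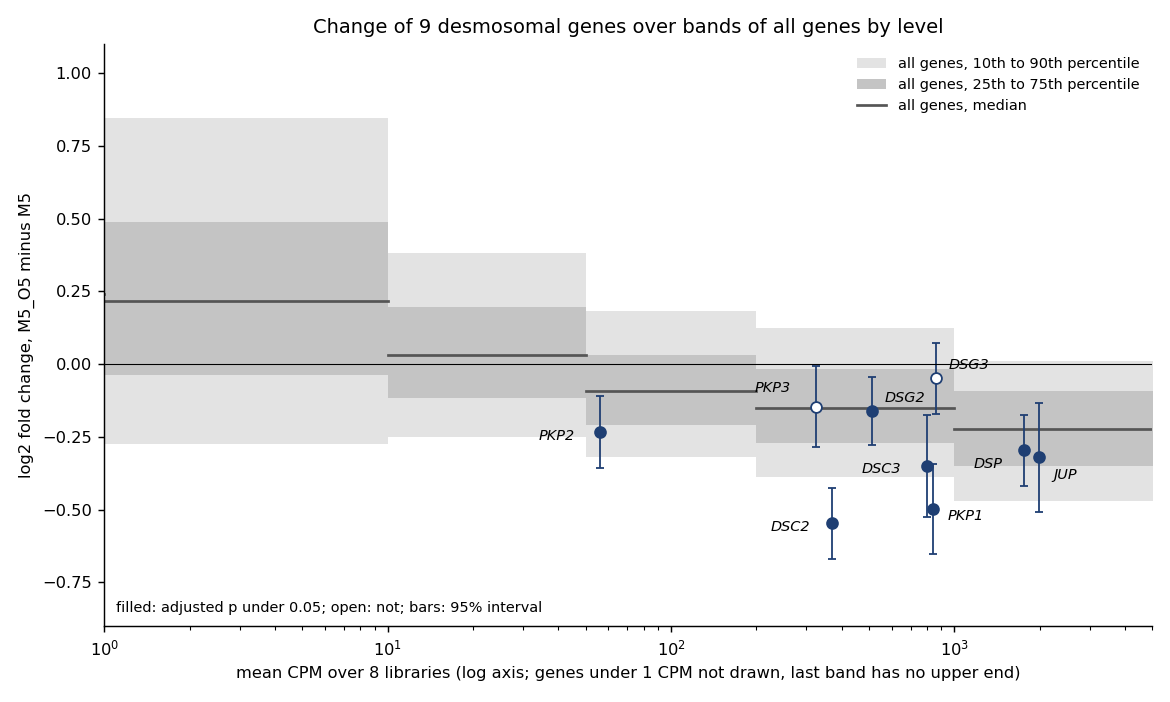
Log2 fold change of M5_O5 against M5 (vertical axis) over mean CPM (log axis) for the 9 genes tested, with bars for the 95% interval, filled where the adjusted p-value was under 0.05, over grey bands that hold the 10th to 90th and 25th to 75th percentile of all genes of that level and a line at their median. The bands step down from a median of 0.22 at 1 to 10 CPM to -0.22 at 1000 CPM or more, and DSC2 and PKP1 are the members below the 10th percentile of their band.

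Among the cadherins, DSC2 had the largest fall of the 9 genes. It is a desmocollin of all desmosome-bearing tissues. After TMM scaling it measured 319, 298, 273 and 311 CPM in M5_O5 replicates 1 to 4 and 445, 425, 447 and 437 CPM in M5 replicates 1 to 4. The lowest M5 library stood above the highest M5_O5 library by more than the whole spread of either group. The level in M5_O5 was 68.4% of that in M5 (log2 fold change -0.55, SE 0.058, adjusted p = 1.07e-05, edgeR), and the call held under each of 19 alternative fits, in which the log2 fold change lay between -0.58 and -0.40.

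DSC3, the desmocollin of the lower epidermal layers, measured 779, 682, 633 and 724 CPM in M5_O5 and 1040, 807, 879 and 861 CPM in M5. Replicate 1 was the highest library of each group, and the groups did not overlap. The level in M5_O5 was 78.5% of that in M5 (log2 fold change -0.35, SE 0.082, adjusted p = 0.00431, edgeR). Scaled by library size alone, by which the median of all genes moved from 0.01 to 0.13, its adjusted p was 0.0561, and the call was lost in 4 of the 19 alternative fits.

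DSG2, the most widespread desmoglein and a low one in normal epidermis, measured 454, 494, 466 and 514 CPM in M5_O5 and 537, 522, 550 and 547 CPM in M5. The groups came close to each other without overlapping, with M5_O5 replicate 4 and M5 replicate 2 the nearest. The level in M5_O5 was 89.5% of that in M5 (log2 fold change -0.16, SE 0.055, adjusted p = 0.0339, edgeR). This call was lost in 11 of the 19 alternative fits. The log2 fold change itself shrank to -0.05 with library size alone, to -0.04 on both TPM scales and to -0.004 with the level trend removed. It stayed between -0.17 and -0.13 where the call was lost by leaving out a library, without M5_O5 replicate 1 (adjusted p = 0.0792), M5_O5 replicate 2 (0.0541), M5_O5 replicate 3 (0.0914), M5 replicate 3 (0.092) and M5 replicate 4 (0.0951).

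DSG3 measured 808, 877, 826 and 873 CPM in M5_O5 and 934, 847, 864 and 855 CPM in M5, and the groups overlapped. Its log2 fold change of -0.05 had a 95% interval from -0.17 to 0.07 (adjusted p = 0.528, edgeR), so a change as large as that of DSC2 lay outside the interval in this fit. With library size alone the value was 0.07, which is -0.06 relative to the median of all genes under that scaling (0.13). With the level trend removed it turned to 0.12 (adjusted p = 0.151, edgeR), and DSG3 passed the threshold in none of the 19 alternative fits.

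Ratios between genes of a library are free of the scaling between libraries. In TPM there were 0.324 ± 0.0263 DSC2 transcripts per DSG3 transcript in M5_O5 and 0.459 ± 0.0146 in M5 (SD, n = 4 each), and the ranges of 0.301 to 0.360 and 0.439 to 0.473 did not overlap. For both desmocollins summed against the desmogleins the ratio was 0.559 ± 0.0662 in M5_O5 and 0.698 ± 0.0430 in M5, with ranges of 0.510 to 0.655 and 0.659 to 0.759. The lowest M5 library was thus just above the highest M5_O5 library, which was replicate 1. These ratios were chosen after the values were seen and carry no test.

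Of the plaque proteins that bind the cadherin tails, JUP measured 1669, 1830, 1966 and 1626 CPM in M5_O5 and 1883, 2539, 2194 and 2238 CPM in M5. M5 replicate 1 lay within the range of the M5_O5 libraries, and the other M5 libraries stood above it. Plakoglobin is shared with the adherens junction, and its level in M5_O5 was 80.1% of that in M5 (log2 fold change -0.32, SE 0.087, adjusted p = 0.0105, edgeR). Its CPM did not pass a two-sided exact permutation test of the 8 libraries (p = 0.0571), in which the smallest p is 0.0286.

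PKP1 measured 626, 754, 733 and 677 CPM in M5_O5 and 891, 1073, 972 and 1002 CPM in M5. Every M5 library was above every M5_O5 library, and replicate 1 was the lowest of both groups. The level in M5_O5 was 70.8% of that in M5 (log2 fold change -0.50, SE 0.072, adjusted p = 0.000139, edgeR). As for DSC2, the call held in each of the 19 alternative fits, with log2 fold changes between -0.54 and -0.32. Loss of PKP1 in people causes a skin fragility disorder, and the protein is known for clustering desmosomes and strengthening adhesion.

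PKP2, the rarest of the plakophilins in these cells, measured 48.3, 52.4, 53.9 and 52.2 CPM in M5_O5 and 58.0, 60.3, 62.8 and 62.2 CPM in M5. The groups were separate, with a small difference (log2 fold change -0.23, SE 0.058, adjusted p = 0.00586, edgeR) whose call was lost with library size alone (adjusted p = 0.108) and on both TPM scales. PKP3 measured 335, 292, 323 and 285 CPM in M5_O5 and 317, 365, 343 and 342 CPM in M5, and the groups overlapped. Its log2 fold change was -0.15 with a 95% interval from -0.28 to -0.01, and it missed the threshold after adjustment (adjusted p = 0.0907, edgeR). It was called lower in 4 of the 19 alternative fits, with DESeq2 (adjusted p = 0.0497), with the length trend removed (0.0456), without M5_O5 replicate 1 (0.0352) and without M5 replicate 1 (0.0257). PKP1 per PKP3, in TPM, was 1.13 ± 0.147 in M5_O5 and 1.44 ± 0.0310 in M5, again without overlap.

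DSP, which anchors keratin filaments in every desmosome, measured 1498, 1663, 1560 and 1601 CPM in M5_O5 and 1959, 1966, 1875 and 1960 CPM in M5. All M5 libraries were above all M5_O5 libraries. The level in M5_O5 was 81.5% of that in M5 (log2 fold change -0.30, SE 0.057, adjusted p = 0.00117, edgeR). DSP lost its call only with the level trend removed (adjusted p = 0.181, edgeR). On log2(TPM + 1) and log2(TPM + 0.1) the call was just under the threshold (log2 fold change -0.17 on each, adjusted p = 0.049 and 0.0499, limma). There were 0.425 ± 0.0150 DSP transcripts per cadherin transcript in M5_O5 and 0.446 ± 0.0201 in M5, with overlapping ranges. All 10 genes summed took 0.233 to 0.241% of all TPM in the M5_O5 libraries and 0.259 to 0.274% in the M5 libraries.

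**Figure D3:**
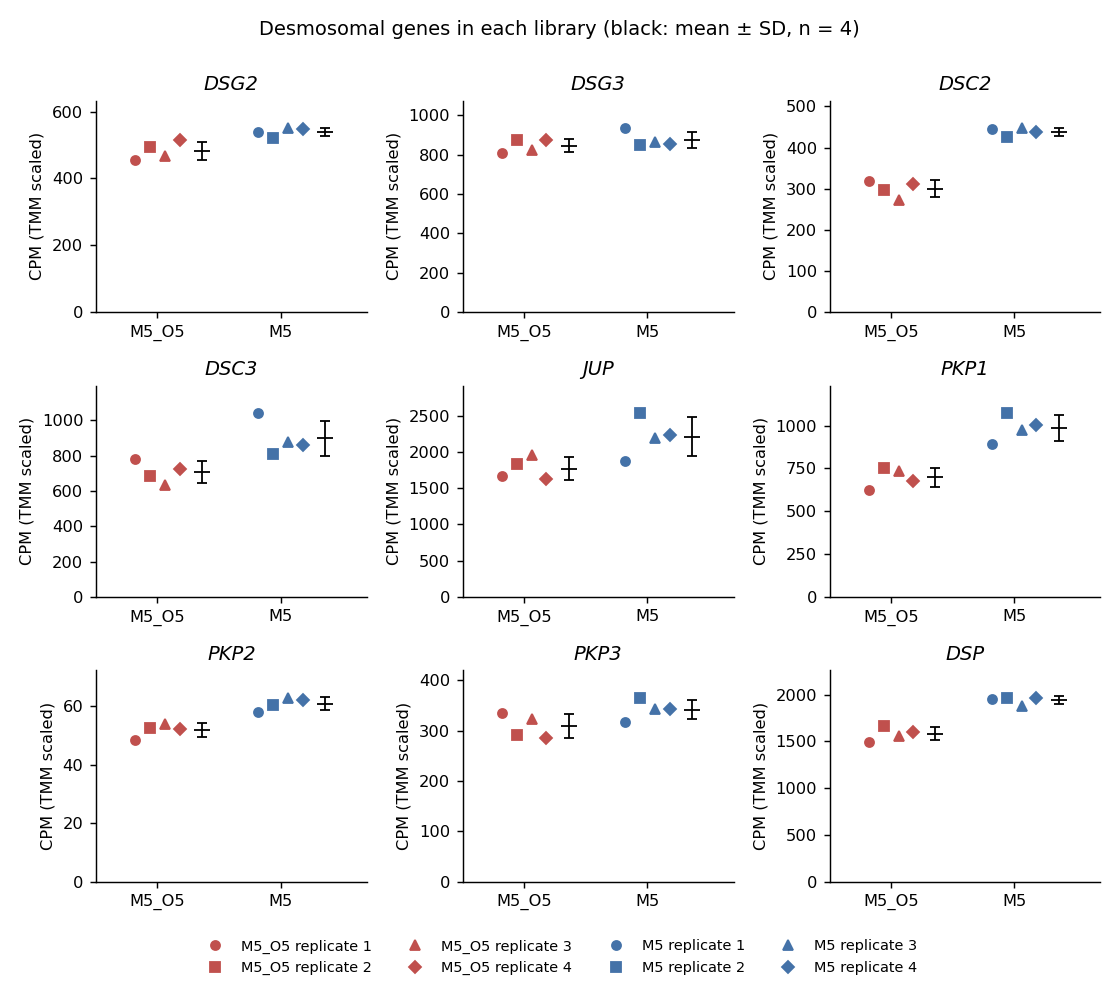
CPM after TMM scaling of the 9 genes tested, from 0, with a point per library (M5_O5 red, M5 blue, a shape for each replicate number) and the mean ± SD of the 4 libraries in black. The groups are separate for DSG2, DSC2, DSC3, PKP1, PKP2 and DSP and overlap for DSG3, JUP and PKP3.

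The table is made per transcript, and 33 RefSeq transcripts belong to the 10 genes, of which 26 were tested. In the same fit on all transcripts 5 were lower in M5_O5 and none was higher, where 1.49% of 38929 transcripts were lower and 1.58% higher. No share was computed for transcripts of like level. Among genes the share called lower rose with level, so these percentages are not matched to the transcripts called. Splice forms share most of their reads, and the uncertainty of dividing reads between them is not in the table. Called lower were the form DSC3a (NM_001941, log2 fold change -0.41, adjusted p = 0.0081, edgeR), the long desmoplakin DSPI (NM_004415, -0.29, adjusted p = 0.0174), PKP1a (NM_001005337, -0.47, adjusted p = 0.0215), DSC2b (NM_004949, -0.50, adjusted p = 0.00698) and a predicted DSC2 model (XM_005258206, -0.53, adjusted p = 0.00624). The calls of DSPI and PKP1a were lost without M5_O5 replicate 3, M5_O5 replicate 4, M5 replicate 2, M5 replicate 3 or M5 replicate 4, with adjusted p-values between 0.059 and 0.0808 in edgeR and log2 fold changes of -0.30 to -0.28 for DSPI and -0.49 to -0.43 for PKP1a. With limma on log2(TPM + 0.1) the calls of DSC3a (log2 fold change -0.32, adjusted p = 0.0929), DSC2b (-0.40, adjusted p = 0.0551) and DSPI (-0.20, adjusted p = 0.0675) were lost.

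Desmocollins are spliced into an a form, whose cytoplasmic tail binds plakoglobin, and a b form, in which an extra exon ends the protein early. By GENCODE v29 the coding sequence of DSC3a has 896 codons and that of DSC3b 839. The extra exon is shown for both genes because the 2 exons share much of their sequence, 5′ to 3′ on the minus strand of GRCh38, with their longest shared run in capitals.
DSC2b, exon 16, chr18:31068299-31068344: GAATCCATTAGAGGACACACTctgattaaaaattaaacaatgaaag
DSC3b, exon 16, chr18:30994454-30994496: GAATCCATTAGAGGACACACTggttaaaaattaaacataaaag

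Their shared run is 21 bases long, in exons of 46 and 43 bases. DSC3a and DSC3b were present in nearly equal parts, DSC3a with 50.4 ± 2.52% of DSC3 TPM in M5_O5 and 53.9 ± 3.78% in M5 (SD, n = 4 each), ranges that overlap. Replicate 1 had the lowest DSC3a share of each group, 46.8% and 48.5%. DSC3b had a log2 fold change of -0.22 with an SE of 0.15 and was not called. DSC2b made up 17.9 ± 0.281% of DSC2 TPM in M5_O5 and 17.6 ± 0.616% in M5. Nearly all the rest was given to the predicted model, while the record of DSC2a held at most 0.266%. Whether the model encodes an a or a b form was not examined, so the part of DSC2a is not known. The shares also depend on transcript length. In estimated counts of M5_O5 replicate 1, DSC2b had 2071 and the predicted model 3422. Both called DSC2 transcripts fell by similar amounts, and their shares overlapped between the groups.

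PKP1 was almost all in the shorter form. PKP1a, the form of desmosomes, held 99.5 to 100% of PKP1 TPM in the 8 libraries, and PKP1b, known for its location in the nucleus, at most 0.486%. The exon that PKP1b has and PKP1a lacks is shown because it marks the form that was hardly detected, 63 bases of exon 7 on the plus strand of GRCh38, 5′ to 3′.
PKP1b, chr1:201319816-201319878: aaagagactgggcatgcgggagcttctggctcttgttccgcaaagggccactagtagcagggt

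With it the coding sequence has 747 codons, without it 726. PKP2a likewise held 98 to 100% of PKP2 TPM. DSPI, with 2871 codons, held 75.6 ± 1.67% of DSP TPM in M5_O5 and 77.3 ± 1.53% in M5, and DSPII, with a shorter rod and 2272 codons, held 21.0 ± 1.53% and 19.5 ± 1.84%. The DSPII change of -0.15 (SE 0.099) was not called.

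The DSG2 transcripts varied among replicates more than between groups. NM_001943, the reference DSG2 record, held 64.8%, 39.5%, 38.7% and 47.8% of DSG2 TPM in M5_O5 replicates 1 to 4 and 60.8%, 36.6%, 44.5% and 45.1% in M5 replicates 1 to 4. Replicate 1 was the highest of each group, and a predicted model took the rest. For JUP, NM_002230 and NM_021991 together held most of the TPM, with 46.0 ± 3.41% and 35.1 ± 3% in M5_O5. The minor record NM_001352776 had shares that did not overlap between groups, 5.82 to 6.58% in M5_O5 and 5.28 to 5.62% in M5, although its own log2 fold change of -0.11 was not called. PKP3 was divided between NM_007183, with 68.5 to 74.4%, and NM_001303029.

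**Figure D4:**
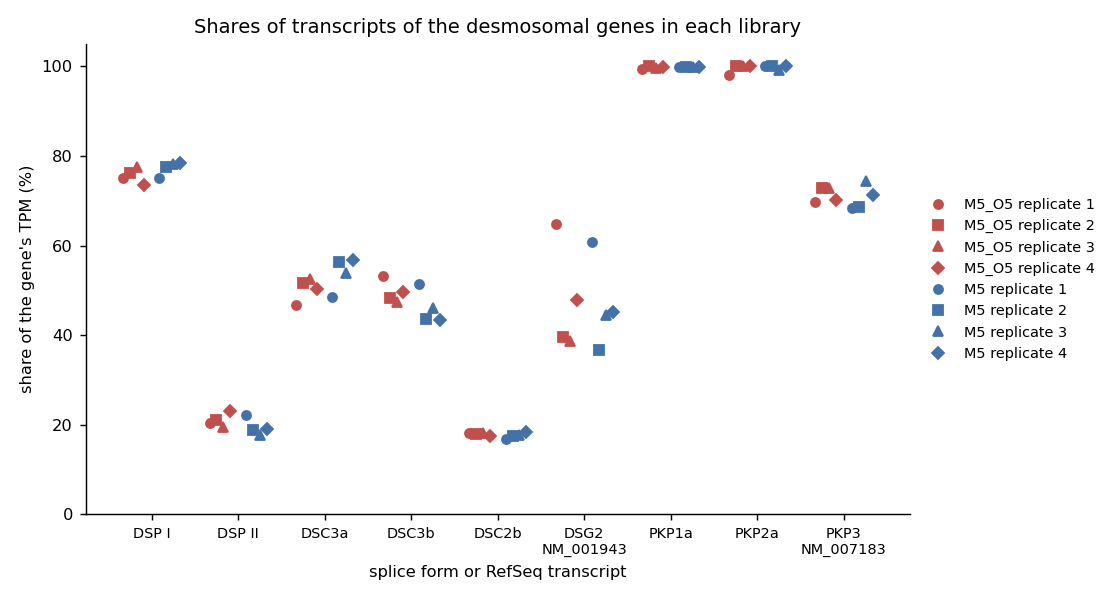
Share of the gene's TPM (percent, from 0) held by 9 transcripts in each library, with M5_O5 in red, M5 in blue and a shape for each replicate number. PKP1a and PKP2a lie at 98% or above, DSC3a and DSC3b near equal parts, and the DSG2 record NM_001943 is highest in replicate 1 of both groups.

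Other genes that work with the desmosome were read from lists by role. Of 7 tested genes of the wider desmosomal plaque and cadherin set, 4 were lower in M5_O5 and none was higher, with a median log2 fold change of -0.25. EVPL and PPL, the plakins envoplakin and periplakin that link desmosomes to the cornified envelope, fell to 83.0% and 83.9% of their M5 level (adjusted p = 0.00181 and 0.00252, edgeR). DSG4 also passed the test (log2 fold change -2.58, SE 0.72), but on levels of 0.172 to 1.05 CPM in M5_O5 and 0.623 to 8.32 CPM in M5 that overlapped, with M5 replicate 1 the highest. The fourth was PERP, a membrane protein of desmosomes, named here beyond the 3 that the rule allows.

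Keratins, the filaments to which desmoplakin is tied, had 8 of 16 tested genes lower and 1 higher, with a median of -0.25. The largest falls were in KRT1 (log2 fold change -2.04, SE 0.43), KRT4 (-1.88, SE 0.50) and KRT13 (-1.46, SE 0.38), keratins of differentiating and mucosal layers, whose M5 libraries ranged widely, from 20.1 to 117 CPM for KRT1. KRT8, a keratin of simple epithelia, rose to 555 ± 57.4 CPM in M5_O5 from 349 ± 32.9 CPM in M5 (log2 fold change 0.67, adjusted p = 3.12e-05, edgeR). Of 9 hemidesmosome genes, which fix the cell to the basement membrane, 7 were lower and none was higher, with LAMA3 (log2 fold change -0.47) and ITGB4 (-0.45) among them.

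All 7 gap junction genes tested were lower, with a median of -0.55. GJB6 (connexin 30, log2 fold change -0.73), GJB2 (connexin 26, -0.64) and GJC1 (connexin 45, -0.56) fell most, GJB2 from 647 ± 34.0 to 414 ± 22.6 CPM. In the adherens junction, 5 of 13 genes were lower and 1 was higher, and the count lower was 8 without M5 replicate 1. NECTIN4 (-0.51), NECTIN1 (-0.49) and AFDN (-0.45), which encodes the afadin that binds nectins, were the largest falls and AJUBA (0.33) the rise. Among 14 tight junction genes 5 were lower and none was higher, with PARD6B (-0.60), CGN (-0.50) and PARD3 (-0.30) the largest.

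Of 17 genes that regulate desmosomes or take them apart, 7 were lower and 3 higher. GRHL1 (log2 fold change -0.49), a transcription factor known for activating desmosomal cadherin genes, and TP63 (-0.29), the master regulator of stratified epithelia, were among the falls. GRHL1 measured 57.5 ± 1.98 CPM in M5_O5 and 80.5 ± 2.35 CPM in M5. The kallikreins KLK5 (0.92, SE 0.082) and KLK7 (0.39, SE 0.13), proteases that cut desmosomal cadherins and corneodesmosin during shedding, rose, as did ATP2C1 (0.15, SE 0.053), the Golgi calcium pump mutated in Hailey-Hailey disease. KLK5 measured 49.9 ± 3.62 CPM in M5_O5 and 26.4 ± 2.82 CPM in M5. The count of regulators higher was 1 without M5_O5 replicate 1, M5_O5 replicate 4, M5 replicate 2 or M5 replicate 4. For each of these lists the shares of all genes called, 17.6% lower and 19.5% higher, and those of genes of at least 50 CPM, 35.6% and 9.78%, are the values to read them against.

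**Figure D5:**
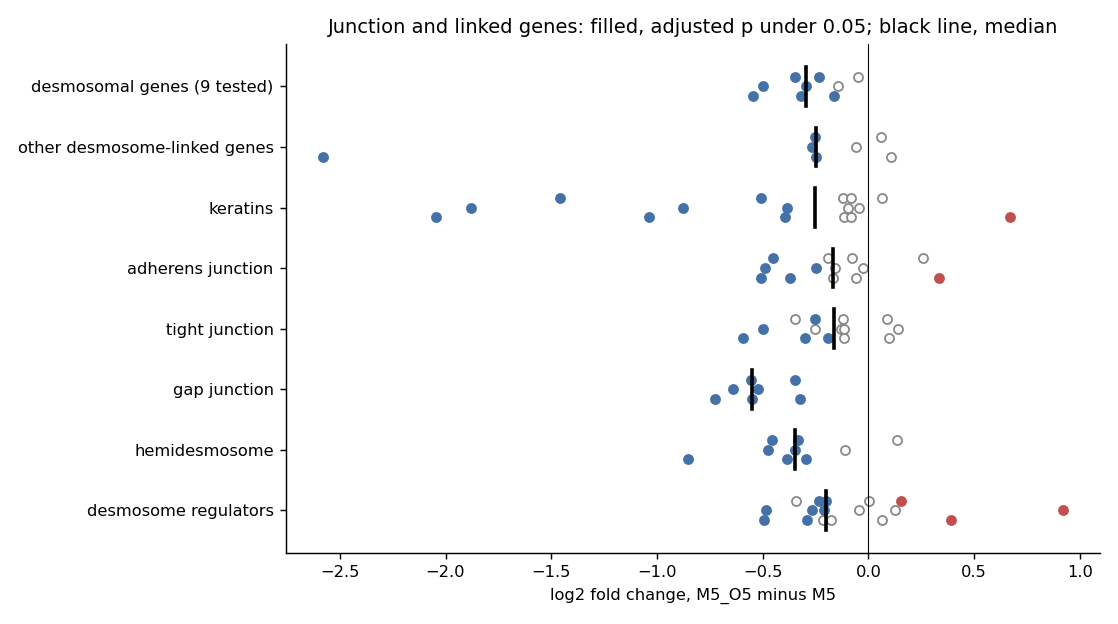
Log2 fold change of M5_O5 against M5 for each tested gene of 8 lists, filled blue where lower and red where higher at an adjusted p-value under 0.05, open where not called, with a black line at the median of the list. The medians run from -0.55 for the gap junction genes to -0.16 for the tight junction genes, and that of the desmosomal genes is -0.30.

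Patterns over the 8 libraries were compared by the root mean square difference of log2 CPM, each gene centred on its mean, among the 8679 other genes that averaged 10 CPM or more. Among the members themselves, DSG2 and PKP2 were nearest to each other at 0.0657, followed by DSP with PKP2 at 0.0659 and DSG3 with DSG2 at 0.0741. JUP and PKP1 were nearest to each other at 0.113, and so were DSC2 and DSC3 at 0.133. PKP3 was nearest to PKP2 at 0.115. For each member the 3 nearest of all genes came closer than any desmosomal gene, but they were picked from 8679 candidates against 8. The smallest distance among so many more candidates tends to be lower, so this order does not show how alike the members are. The nearest were EIF4EBP2, TPST1 and KDM7A for DSC2 (0.0369 to 0.0396), ELK4, ITGA6 and PTBP3 for DSC3 (0.0249 to 0.0413), NFKB1, EIF3A and SOD2 for DSG2 (0.0208 to 0.0256), and STAG2, ERV3-1 and AHCTF1 for DSG3 (0.0174 to 0.0251). ARHGEF4, DNAJB2 and NECTIN1 were nearest to PKP1 (0.0129 to 0.0418), RCC2, AREL1 and MYL12A to PKP2 (0.024 to 0.027), and ZNF219, NAPRT and PLEKHF1 to PKP3 (0.0202 to 0.0253). GRN, ZSWIM8 and CRTC2 were nearest to JUP (0.0283 to 0.0314), and KMT2E, CCNL2 and SLC35E2A to DSP (0.0238 to 0.026).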

How the data were processed

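RNA of 8 HaCaT libraries was sequenced (SMARTER mRNA-Seq kit, strand handling not given in the sources used here). By the study's methods the authors used HISAT2 for mapping and StringTie for counting of filtered reads, while the submitters' processing notes name HISAT2 2.1.0, Bowtie2 2.2.5 and RSEM 1.2.8 with a mouse build, although the table lists human transcripts, so no build was taken for it. The deposited estimated counts are not normalized, the deposited TPM give each library the same sum after division by transcript length, and the deposited FPKM are relative to transcript length and the size of the library. The authors' group means and comparison columns were not used.

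Counts of 86639 transcripts, 4181 of them further placements, were summed to 17131 genes and rounded (53.8% of transcript values were fractional). Symbols of 17072 genes came from RefSeq. Genes passing filterByExpr (12434) were scaled by TMM and fitted with edgeR 4.0.16 (R 4.3.3). Standard errors were the fold change divided by the root of F, 95% intervals from the t distribution of the fit. The biological coefficient of variation was 7.42%. The edgeR, DESeq2 and limma fits, with the level trend and the replicate block, were tested on simulated counts, and the other steps were not. Alternatives were DESeq2 1.42.0, limma 3.58.1 on log2(TPM + 1) and log2(TPM + 0.1), other scalings and filters, a replicate block, trends on level or length removed, and each library left out. Reading against genes of at least 50 CPM and bands of level was added after the data were seen.

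The members and lists were chosen with earlier results of these data known. The genes named were all members, PBK, and of each list at most 3 called genes per direction with the largest change and a mean of at least 1 CPM, except for list genes that are not reported here. Transcripts were named at 5% or more of their gene's TPM in any library, and others of the same genes where a form is set against them.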

Additional observations from a re-analysis of the deposited data

Results flagged for a closer look

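In 100 groups of 4 libraries (CPM of the 10 genes, shares of their transcripts, and shares and ratios within families), a library was flagged when its gap to the nearest other exceeded Dixon's 95% critical share of the group's range. This marked 8 groups, where chance marks about 1 in 20, or 5 of 100, and the measures overlap. DSP CPM was lowest in M5 replicate 3 at 1875, against 1959 to 1966 in the others. The DSG2 share of desmogleins was lowest in replicate 1 of both groups, 38.0% against 40.2 to 40.5% in M5_O5 and 38.9% against 42.6 to 42.8% in M5. The DSG3 share is nearly its complement and was highest there, 62.0% in M5_O5 and 61.1% in M5. The JUP transcript NM_002230 held 51.1% of JUP TPM in M5_O5 replicate 1, against 44.3 to 44.4% in the others. The PKP2 transcript NM_001005242 was at 98% in M5_O5 replicate 1 and 99.2% in M5 replicate 3 and at 100% in the others.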

How the results depend on the processing

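Of the 9 genes, 7 were lower in the fit reported, and the count was 4 with library size alone, 4 with limma on log2(TPM + 1), 4 with limma on log2(TPM + 0.1), 3 with the level trend removed and 0 where a fold change of 2 was also required. It was 6 to 8 with a library left out, and no gene was higher in any of these. The median of all genes moved to 0.13 with library size alone and to 0.12 and 0.13 with the 2 TPM scales. With library size alone 3858 genes were higher and 1008 lower, against 2420 and 2192. Transcripts called lower were 2 with limma, 2 with the replicate block and 3 to 5 with a library left out, 3 without M5_O5 replicate 3 or 4 and without M5 replicate 2, 3 or 4.

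With library size alone, regulators were 4 lower and 5 higher, keratins 2 higher, tight junction genes 2 higher, and wider desmosomal and hemidesmosome genes 1 higher each. With the level trend removed, wider desmosomal genes were 2 lower, keratins 3 higher, tight junction genes 3 lower and 1 higher, hemidesmosome genes 1 higher and regulators 3 lower. Leaving out a library gave 5 to 8 adherens junction genes lower, 0 to 1 tight junction and 0 to 1 hemidesmosome genes higher (1 without M5 replicate 1), and 1 to 4 regulators higher.

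Whether the replicate numbers of the titles pair the libraries is not settled: deviations of same-numbered libraries correlated at 0.383, 0.299, 0.0901 and -0.0545. M5_O5 replicates 1 and 2 correlated best with the M5 library of the same number. M5_O5 replicate 3 correlated best with M5 replicate 2 (0.509) and M5_O5 replicate 4 with M5 replicate 1 (0.326). A batch shared by same-numbered libraries was not tested. With the number as a replicate block, 7 genes were lower, the transcript calls of DSC2b (adjusted p = 0.0592, edgeR), the predicted DSC2 model (0.0507) and DSPI (0.063) were lost, and tight junction and hemidesmosome genes were 1 higher each. The causes of these shifts were not tested. No change of DSG1 or DSC1 could be tested at their counts, and the small changes of DSG2 and PKP3 lie near the threshold.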
